A study of Mus musculus with 4 samples.

Results

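Pericytes, the mural cells of capillaries, were picked out of single-nucleus RNA-Seq of the mouse lung by the transcripts in each droplet. In this method nuclei are caught in droplets, transcripts carry the barcode of their droplet, and a second tag on each molecule, the unique molecular identifier (UMI), keeps copies from being counted again. A barcode was taken as a pericyte nucleus when it held 1500 or more UMIs and 5 or more UMIs from at least 3 of the 7 genes Notch3, Trpc6, Adcy8, Kcnq5, Pdgfrb, Vsnl1 and Gucy1a1. It could hold at most 2 UMIs of Ptprc, the leukocyte marker CD45, and at most 3 UMIs in total of the endothelial genes Pecam1, Cdh5, Tek and Ptprb. The members were thus chosen by their counts of these genes and by depth. The rule found 374 pericytes among the 134745 barcodes with 1500 or more UMIs, 0.278% of them.

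The lungs came from 2 WT mice of the strain C57/BL6J and 2 VEcad-TRF2DN-Tg mice (Tg mice), all aged 8 to 9 weeks, and the paper states that the mice had been exposed to chronic hypoxia. In the Tg mice, the VEcad promoter drives a dominant-negative TRF2, a telomere protein, so that the transgene acts in ECs and the pericytes themselves are not its target. The study asked how senescent ECs act on the mural cells beside them, in particular through Notch signaling. The transgene is a form of the human gene and is not among the genes counted, so the genotype labels could not be checked in the pericytes through it.

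Pericytes sit in the basement membrane of capillaries and touch the endothelium, whose PDGF-B recruits them through the receptor encoded by Pdgfrb. They bind Notch ligands of ECs through NOTCH3, relax through nitric oxide and its second messenger cGMP, and secrete angiopoietin-1 and matrix towards the endothelium. Unlike SMCs of arteries, they are known to hold little contractile protein.

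The pericytes numbered 60 and 62 in WT mice and 105 and 147 in Tg mice. Their median depth was 2904.5 and 4214.5 UMIs in WT mice and 2675 and 3376 UMIs in Tg mice, and all pericytes of a mouse together held 225430, 363569, 383792 and 649291 UMIs in the same order. No pericyte barcode occurred in more than 1 library, while 1863 barcodes with 1500 or more UMIs did. The UMIs of the 7 rule genes ranged from the lower limit of 5 to 524 per pericyte, with a median of 20. Just inside the rule were 35 pericytes with exactly 5 such UMIs and 89 with UMIs from exactly 3 of the genes, and 52 pericytes had all 7. Just outside it were 83 barcodes with 4 UMIs, 166 with UMIs from 2 of the genes, 136 over the endothelial limit and 89 over the Ptprc limit.

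**Figure D1:**
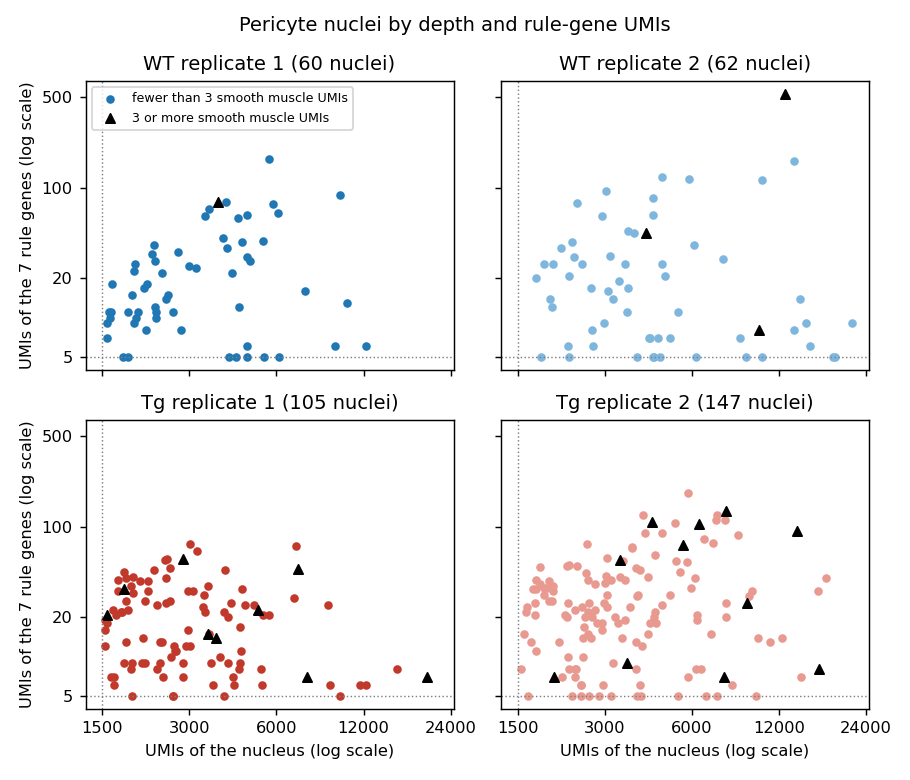
Each point is a pericyte nucleus, with all its UMIs on the horizontal axis and the UMIs of the 7 rule genes on the vertical axis (both on log scales, dotted lines at the limits of 1500 and 5). Black triangles mark the 24 nuclei with 3 or more UMIs of smooth muscle genes, counted without Mylk, Synpo2 and Smtn. Nuclei lie along the whole range from 5 rule-gene UMIs upwards in every mouse, and the nucleus with 524 comes from WT replicate 2.

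How far the label holds was described with genes that the rule did not use, though they were picked as the highest in these same nuclei, so that a rise with the rule genes is in part set by the choice. The 20 genes that led pericytes over all other barcodes, named further on, together reached 27680 and 27398 CPM (UMIs scaled to 1000000 per class and mouse) in WT mice and 21282 and 19839 CPM in Tg mice among the pericytes with 20 or more rule-gene UMIs. Among those with 8 to 19 they reached 10204, 6733, 9518 and 10292 CPM, and among those with 5 to 7 they reached 7120, 3035, 2862 and 3558 CPM. Barcodes with 4 rule-gene UMIs had 2481, 2044, 2174 and 1975 CPM, and barcodes with none had 695 to 910 CPM. In every mouse the pericytes with 5 to 7 rule-gene UMIs thus lay nearer to the barcodes just outside the rule than to the pericytes with 20 or more.

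Other transcripts in the same droplets came partly from RNA free in the suspension. Its profile was taken from barcodes with 100 or fewer UMIs, and from genes of secretory epithelium it was estimated to make up 37.8% and 33.0% of the UMIs of pericytes in WT mice and 31.9% and 37.4% in Tg mice. Against this profile, the summed CPM of the rule genes in pericytes was 3424% to 4904% of its level in free RNA, and that of a further list of 20 pericyte genes was 899% to 1657%. This list holds Pde5a, Gucy1b1, Angpt1 and Pdzd2, which are also leading genes picked in these same nuclei. Pdzd2 alone had 2676 to 3194 CPM of the 5914 to 8823 CPM of the list, and 12 of the 20 genes had enough UMIs to be tested. Club cell genes reached 32.2% to 37.4% of their level in free RNA, AT2 genes 36.3% to 42.9% and endothelial genes 51.4% to 80.9%. The club and AT2 values are in part set by the estimate above, which drew on genes of both lists, such as Scgb3a2 and Sftpc. The 8 fibroblast genes of the compared class reached 83.7% to 175%, other fibroblast genes 79.8% to 102%, mesothelial genes 83.4% to 181% and ciliated cell genes 35.3% to 217%. Macrophage genes reached 43.6% to 57.5%, lymphocyte genes 47.1% to 137%, alveolar type 1 genes 64.0% to 91.4% and cardiac muscle genes 126% to 176%. The endothelial values are in part set by the rule's limit on endothelial genes. Its limit on Ptprc in part sets the macrophage and lymphocyte values. The part of these other transcripts in the results was not tested except where an alternative is given. Of the 377 UMIs of the ciliated cell gene Dnah12, 84.4% came from 10 pericytes. Of the 374 pericytes, 24 also passed the marker count of fibroblasts and 145 that of alveolar type 1 cells, and 163 were among the barcodes with the highest doublet scores (cxds). These were 46.7%, 61.3%, 31.4% and 43.5% of the pericytes of each mouse, against 21.5%, 30.8%, 20.2% and 35.2% of all its barcodes.

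Notch3, the Notch receptor of mural cells, had 461 and 409.8 CPM in WT and 505 and 484 CPM in Tg mice. It stood at 6.39 to 12.0 CPM in alveolar fibroblasts and at 10.2 to 15.96 CPM in endothelial nuclei, classes gated by their own markers in the same form (852 and 6977 nuclei). Pdgfrb, the receptor for PDGF-B, had 231 and 124 CPM in WT and 237 and 154 CPM in Tg mice against 7.92 to 23.3 CPM in fibroblasts. Since these genes chose the nuclei, the contrast between classes is given as a description.

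The other rule genes serve calcium entry, potassium current and cyclic nucleotides. Trpc6, a cation channel opened by diacylglycerol, had 1522 and 1108 CPM in WT and 1157 and 1278 CPM in Tg mice. Kcnq5, a voltage-gated potassium channel, had 2901 and 3336 CPM in WT and 2410 and 3695 CPM in Tg mice, and Adcy8, an adenylyl cyclase stimulated by calcium, had 1016 and 583 CPM in WT and 816 and 909 CPM in Tg mice. Vsnl1, a neuronal calcium sensor, had 222 and 124 CPM in WT and 195 and 196 CPM in Tg mice, and Gucy1a1, the alpha subunit of the nitric oxide receptor guanylate cyclase, had 785 and 470.3 CPM in WT and 558 and 713 CPM in Tg mice. Between the genotypes, the log2 fold changes of the 7 genes were −0.03 to 0.28, from which nothing is read since their counts chose the nuclei.

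Beside the rule genes, the genes with the highest ratio of pericytes to all other barcodes included 4 of the nitric oxide and cGMP system. Gucy1b1, which encodes the beta subunit of the nitric oxide receptor, had 399 and 278 CPM in WT and 339 and 448 CPM in Tg mice, compared to 21.8 to 49.0 CPM in fibroblasts and 9.57 to 12.2 CPM in endothelial nuclei. Gucy1a2, a second alpha subunit, had 563 and 338 CPM in WT and 365 and 405 CPM in Tg mice, and Pde5a, the phosphodiesterase that breaks down cGMP, had 1406 and 701 CPM in WT and 1016 and 1078 CPM in Tg mice. Prkg1, the kinase that cGMP activates, had 4125 and 3419 CPM in WT and 2718 and 3555 CPM in Tg mice, but fibroblasts had 2129 to 3136 CPM of it as well. The receptor subunits and the phosphodiesterase thus separated pericytes from fibroblasts in every mouse. The kinase was also higher in pericytes than in fibroblasts of the same mouse, but its ranges over the mice overlapped between these classes.

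The leading genes fell apart by how they stood in fibroblasts. Tmem200a, Nmnat2, which encodes an NAD-synthesizing enzyme, Col8a1, a short-chain collagen, and Clstn2, a calsyntenin, were low in fibroblasts, where Clstn2, the highest of them there, had 3.96 to 36.6 CPM. In pericytes, Tmem200a had 204, 110.0, 109 and 139 CPM, in the order of the WT and then the Tg mice. Nmnat2 had 266, 215, 229 and 240.3 CPM, Col8a1 119.8, 105, 141 and 132 CPM and Clstn2 807, 743, 448 and 849 CPM in that order. By contrast, Ednra, the endothelin A receptor, had 146 to 293 CPM in pericytes and 244 to 318 CPM in fibroblasts. Angpt1, which encodes the TIE2 ligand angiopoietin-1, had 425 to 745 CPM in pericytes and 960.0 to 1362 CPM in fibroblasts, and Ism1, an isthmin, had 237 to 537 and 377 to 584 CPM. Sgip1 and Rgs6 were also found in endothelial nuclei, at 130.2 to 149.6 and 134 to 206 CPM. Aff2, Arhgap42, Tafa1, Tbx5, Pdzd2 and Egflam were also among the leading genes. Leading genes were not evenly spread over the nuclei, since 10 pericytes held 51.2% of the 205 Col8a1 UMIs but 19.5% of the 4927 UMIs of Pdzd2.

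**Figure D2:**
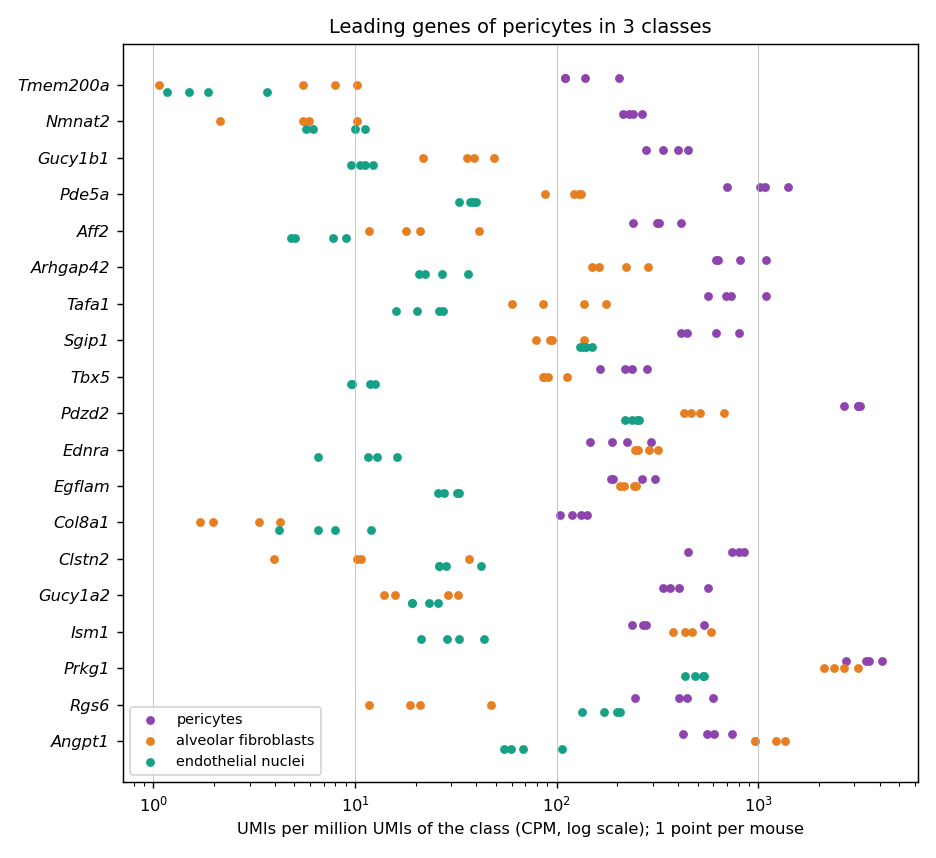
The level of leading genes in CPM of the class (horizontal, log scale) is drawn for pericytes, alveolar fibroblasts and endothelial nuclei, with 1 point per mouse. For Tmem200a, Nmnat2, Col8a1 and Clstn2 the pericyte points stand far to the right of both other classes, whereas for Ednra, Egflam and Ism1 the fibroblast points lie among or to the right of them, and for Angpt1 all to the right.

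Notch signaling, which the study is about, acts through the DNA-binding protein RBPJ. For this reason the promoters of Gucy1a1, a gene of the rule, and of Gucy1b1 and Pde5a, which lead the pericytes, are shown. They span 250 bases before to 50 bases after the start site in RefSeq (GRCm38.p6), are printed in the direction of the gene, and capitals mark the letters TGGGAA of the RBPJ core on either strand, TTCCCA being the reverse. Gucy1a1 has 2 start sites there. The promoter of the first (chr3:82145601-82145900, minus strand) holds no match, and that of the second is printed.
Gucy1a1, chr3:82145024-82145323, minus strand: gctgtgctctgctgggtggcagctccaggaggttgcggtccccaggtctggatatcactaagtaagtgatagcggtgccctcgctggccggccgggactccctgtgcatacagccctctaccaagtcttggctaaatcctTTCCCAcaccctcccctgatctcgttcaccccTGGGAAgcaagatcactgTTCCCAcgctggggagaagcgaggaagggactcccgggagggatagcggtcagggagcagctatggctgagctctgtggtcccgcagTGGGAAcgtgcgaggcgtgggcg
Gucy1b1, chr3:82074662-82074961, minus strand: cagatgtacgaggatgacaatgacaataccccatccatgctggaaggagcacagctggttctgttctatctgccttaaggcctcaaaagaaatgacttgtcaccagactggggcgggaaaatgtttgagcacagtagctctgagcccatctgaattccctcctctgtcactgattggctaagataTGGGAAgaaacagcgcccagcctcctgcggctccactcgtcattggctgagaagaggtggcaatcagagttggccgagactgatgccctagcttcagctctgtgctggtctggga
Pde5a, chr3:122728908-122729207, plus strand: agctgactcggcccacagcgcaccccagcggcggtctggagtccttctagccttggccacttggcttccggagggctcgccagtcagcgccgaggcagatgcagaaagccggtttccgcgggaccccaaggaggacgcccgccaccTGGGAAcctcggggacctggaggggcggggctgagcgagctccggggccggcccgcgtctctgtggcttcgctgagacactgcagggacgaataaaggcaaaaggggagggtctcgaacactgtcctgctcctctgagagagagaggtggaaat
This Gucy1a1 promoter holds 4 matches, and the other two hold 1 each. Of all 32851 promoters in the table, 25.6% hold at least 1 match and 0.0365% hold 4 or more. The promoters of Notch3 and Trpc6 hold none. The letters of the EBF motif (TCCC and GGGA with any 2 bases between them) and CATTCC of TEAD factors, searched on both strands, are in none of these promoters, and 0.904% and 14.7% of all promoters hold them. A match describes these letters only, and the gene counts below say nothing about binding. The other rule genes and leading genes were not looked up, and no promoter of the Notch targets Hes1 and Heyl was available. Between the genotypes, the log2 fold change was 0.10 for Gucy1a1, 0.30 for Gucy1b1 and 0.07 for Pde5a. Of the cGMP list, 8 genes were tested and none passed, against 2.31% of all genes tested.

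Among 20 further genes known from pericytes, 12 had enough UMIs to be tested. Ebf1, a transcription factor of mural cells, had 1766 and 976 CPM in WT and 1126 and 1392 CPM in Tg mice, above fibroblasts (65.4 to 145 CPM) and endothelial nuclei (179.6 to 274 CPM). Postn, the matrix protein periostin, had 257 and 66.0 CPM in WT and 133 and 219 CPM in Tg mice against 1.71 to 9.59 CPM in fibroblasts. Agtr1a, the angiotensin II receptor, had 102 and 93.5 CPM in WT and 117 and 114 CPM in Tg mice against 0 to 5.13 CPM, and Cspg4, the proteoglycan NG2, had 39.9 and 13.8 CPM in WT and 59.9 and 52.4 CPM in Tg mice against 0 to 2.13 CPM. Also tested were Cox4i2 and Mcam, given further on, Pde5a, Gucy1b1, Angpt1 and Pdzd2 of the leading genes, Itga1, an integrin subunit, with 175, 150, 195 and 351 UMIs, and Art3, with 14, 23, 21 and 45. Between the genotypes none of the 12 passed, against 2.31% of all genes tested, and 2 had an unadjusted p under 0.05, against 1068 of all 6914. Their median log2 fold change was 0.24 against −0.02 over all genes tested. The levels of Ebf1, Postn, Agtr1a and Cspg4 set the pericytes apart from fibroblasts in every mouse. The remaining genes of the list were too scarce to be tested. Kcnj8, a subunit of ATP-sensitive potassium channels, had no UMI in 374 pericytes, which allows up to 3 UMIs in all. Abcc9, its regulatory subunit, had 4 and 7 UMIs in WT and 8 and 13 UMIs in Tg mice, and fibroblasts had 9.90 to 26.6 CPM of it against 17.7 to 20.8 CPM in pericytes. Rgs5, a regulator of G protein signaling, had 6, 2, 2 and 4 UMIs, Higd1b 3, 1, 9 and 8 and Ndufa4l2 0, 0, 6 and 5. Foxs1 had 1 UMI in all, and Lamc3 and Rgs4 had 1, 4, 1 and 5 and 5, 4, 6 and 9 UMIs.

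A further ion channel and an adhesion gene were found at levels that fibroblasts did not reach. Kcnk3, the potassium channel TASK-1 that is known from pulmonary hypertension, had 97.6 and 71.5 CPM in WT and 62.5 and 77.01 CPM in Tg mice and 0 to 5.33 CPM in fibroblasts. Cdh2, the N-cadherin that joins pericytes to endothelium, had 129 and 30.3 CPM in WT and 62.5 and 109 CPM in Tg mice and 1.71 to 8.87 CPM in fibroblasts. The lowest level of both genes in pericytes was above the highest in fibroblasts and in endothelial nuclei.

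Smooth muscle genes differed among themselves, and the summed level of the 12 was 601%, 354%, 423% and 347% of that in free RNA. Mylk had 541 and 187 CPM in WT and 219 and 208 CPM in Tg mice, where fibroblasts had 934 to 1172 CPM. Acta2, smooth muscle actin, had 0 and 3 UMIs in WT and 8 and 4 UMIs in Tg mice, or 0, 8.25, 20.8 and 6.16 CPM, where free RNA had 2.66, 2.88, 11.8 and 9.01 CPM. Cnn1, calponin, had none, Tagln had 1, 1, 3 and 1 UMIs, Actg2 0, 0, 1 and 0, Kcnmb1 1, 0, 4 and 0 and Myocd 0, 6, 11 and 10. Myh11, smooth muscle myosin, had 93.2 and 55.0 CPM in WT and 112 and 89.3 CPM in Tg mice, far above free RNA (1.14 to 5.31 CPM). Counted without Mylk, Synpo2 and Smtn, 24 pericytes had 3 or more smooth muscle UMIs (1, 3, 9 and 11 by mouse). These 24 held 52 of the 142 Myh11 UMIs, a share in part set by the choice, since Myh11 was among the genes counted. Between the genotypes, Myh11 had a log2 fold change of 0.55 ± 0.349 (SE, adjusted p = 0.498), Des, the intermediate filament desmin, of 0.65 ± 0.54 (SE, adjusted p = 0.61), and Mylk, myosin light chain kinase, of −0.67 ± 0.437 (SE, adjusted p = 0.514). Without WT replicate 2, Mylk passed as lower in Tg mice (adjusted p = 0.00235), and without WT replicate 1 its log2 fold change was 0.22. Lmod1 had 3, 2, 19 and 17 UMIs, Smtn 1, 10, 6 and 13 and Synpo2 4, 11, 10 and 14, too few to be tested.

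The share of pericytes among barcodes with 1500 or more UMIs was 0.223% (95% exact binomial interval 0.170 to 0.287) and 0.161% (0.123 to 0.206) in WT mice. In the Tg mice it was 0.416% (0.340 to 0.503) and 0.334% (0.282 to 0.393). The intervals cover counting error only. Both Tg mice were above both WT mice, with means of 0.375% ± 0.0576 (SD, n = 2) and 0.192% ± 0.0438 (SD, n = 2), and the exact permutation test over mice gave a two-sided p = 0.333, the lowest that 2 against 2 mice allow. The barcodes that form the denominator had median depths of 1860 and 1961 UMIs in WT mice and 2512 and 2530 UMIs in Tg mice. The gap narrowed with the depth threshold. With 2000 or more UMIs, pericytes made up 0.404%, 0.313%, 0.419% and 0.425% of barcodes. With 2500 or more UMIs they made up 0.457% and 0.467% in WT mice and 0.471% and 0.474% in Tg mice. With 3000 or more UMIs the genotypes overlapped, at 0.531% and 0.518% in WT mice and 0.521% and 0.484% in Tg mice. With 4000 or more they overlapped too, at 0.760% and 0.563% in WT mice and 0.696% and 0.533% in Tg mice. The differences of the means (Tg minus WT) were −0.0223 and −0.0472 percentage points at these thresholds, against 0.183 at 1500 or more. When every barcode was instead thinned to 1500 UMIs, the shares were 0.219% and 0.138% in WT mice and 0.396% and 0.336% in Tg mice, a difference of 0.188. The difference was 0.203 without the highest doublet scores, 0.164 with 8 or more rule-gene UMIs and 0.136 with 1000 or more UMIs. Per 100 gated endothelial nuclei there were 4.52 and 6.55 pericytes in WT mice and 4.52 and 6.18 in Tg mice, and the genotypes overlapped. They also overlapped per 100 gated alveolar fibroblasts, with 43.8 and 48.4 in WT mice and 33.2 and 54.2 in Tg mice. Of the nuclei in the 4 gated classes, pericytes made up 0.807% and 0.537% in WT mice and 1.13% and 1.07% in Tg mice, without overlap.

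**Figure D3:**
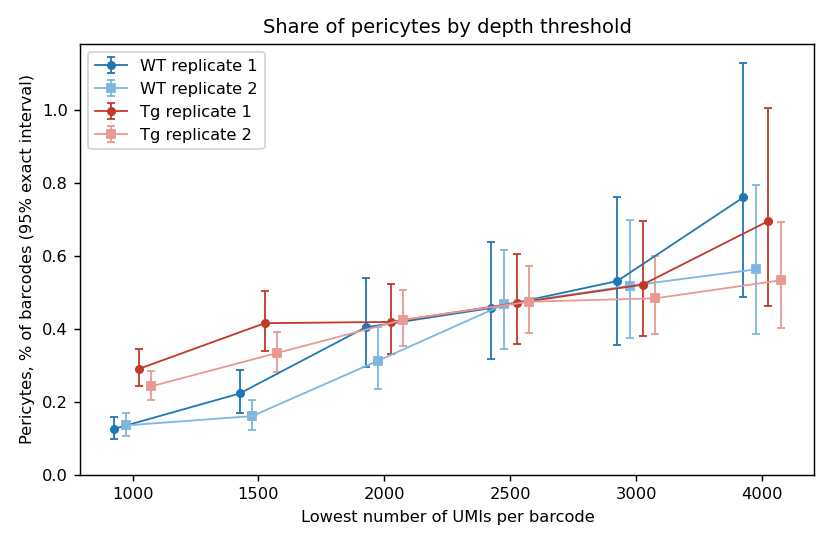
The share of pericytes in percent of barcodes is plotted against the lowest number of UMIs a barcode needed, for each mouse, with 95% exact binomial intervals as bars. At 1500 UMIs both Tg mice lie above both WT mice, and at 2500 UMIs the 4 shares lie between 0.457% and 0.474%.

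To compare the genotypes gene by gene, UMIs were summed over the pericytes of each mouse and tested with edgeR's quasi-likelihood test with Benjamini-Hochberg adjustment over the 6914 genes with enough UMIs. Log2 fold changes are those of the Tg over the WT mice, and adjusted p-values come from this test unless DESeq2 is named. In the pericytes of Tg mice, 154 genes were higher (2.23% of those tested) and 6 were lower (0.0868%), 2.31% in both directions. DESeq2 called 127 of 6305 genes (2.01%), 115 of them higher (1.82%) and 12 lower (0.19%). With a mouse left out, edgeR called 514 genes without WT replicate 1, 565 without WT replicate 2, 221 without Tg replicate 1 and 333 without Tg replicate 2, and 133 of the 160 passed in each case. The higher genes were for the most part of a few kinds. There were 68 genes of the cytoplasmic ribosome, with a median log2 fold change of 2.38, 12 nuclear genes of oxidative phosphorylation (2.79), 8 genes of the mitochondrial genome (2.87), 4 hemoglobin genes (4.23) and 4 genes of secretory epithelium (2.76). The groups were formed after the values had been seen.

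The same genes were higher in the free RNA of Tg mice. Hbb-bs, a beta-globin of red cells, had 26.6 and 44.0 CPM in WT and 1311 and 833 CPM in Tg mice in pericytes and 41.4, 49.5, 3073 and 1339 CPM in free RNA, in the order of the WT and then the Tg mice. Its log2 fold change was 4.94 ± 0.425 (SE, adjusted p = 0.00565). Sftpc, surfactant protein C of alveolar type 2 cells, had 475 and 1059 CPM in WT and 4914 and 3883 CPM in Tg mice in pericytes and 1333, 3154, 15551 and 11227 CPM in free RNA. The ribosomal protein gene Rpl35 had 4.44, 22.0, 128 and 176 CPM in pericytes and 14.8, 43.0, 318 and 234 CPM in free RNA, and mt-Co3, a subunit of cytochrome c oxidase, had 195, 201, 433 and 508 and 1578, 2097, 3925 and 4475 CPM. In each of these 4 genes, both Tg mice were above both WT mice in pericytes and in free RNA alike. In pericytes the genotypes did not overlap in any of the 160 genes past the threshold, nor in 49.5% of all genes tested.

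Over all 154 higher genes, the free RNA was higher in Tg mice as well, and 140 of them were below free RNA in the pericytes of both Tg mice. Above free RNA in both were 7 of the 154, against 36.8% of all 3382 genes tested with a positive log2 fold change. The median level of the 154 genes was 26.6, 41.3, 231 and 189 CPM in pericytes and 60.4, 122, 495 and 355 CPM in free RNA. Free RNA was estimated at 31.9% and 37.4% of the pericyte UMIs in the Tg mice. A level below free RNA thus does not give the part of free RNA in a gene, which was not tested beyond the subtraction below. The mitochondrial share of UMIs in pericytes was 0.0501% and 0.0756% in WT mice and 0.285% and 0.308% in Tg mice. With the free RNA profile subtracted from the counts of each mouse, 10 of 5045 genes passed (0.198%), all higher, and 9 of them were among the 160.

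**Figure D4:**
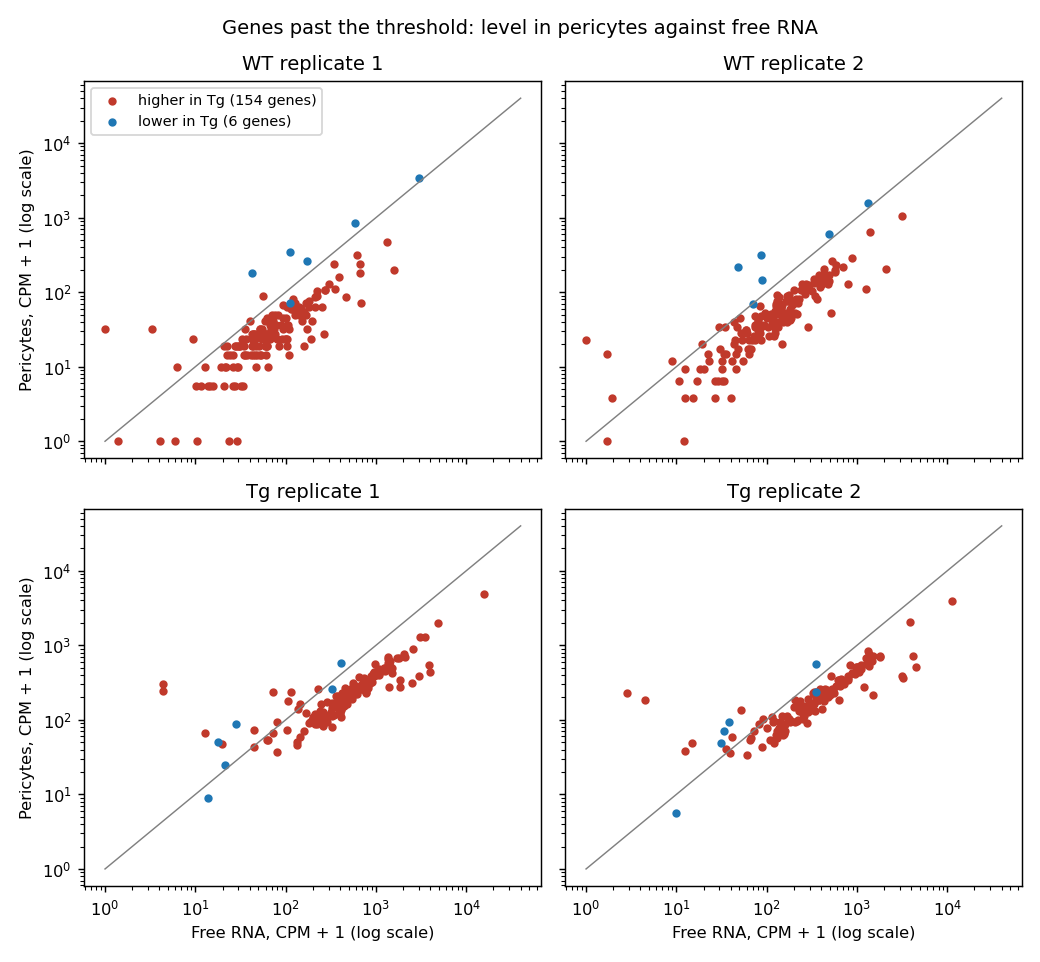
Each point is 1 of the 160 genes past the threshold, with its level in free RNA (horizontal) and in pericytes (vertical) of the same mouse, in CPM + 1 on log scales, and the line marks equal levels. Most of the 154 genes higher in Tg mice lie below the line in each mouse, and they lie farther up and to the right in Tg mice.

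Of the 6 genes that fell, 5 were above free RNA in the pericytes of both WT mice. Camk1d, a calcium and calmodulin-dependent kinase, had 3367 and 1546 CPM in WT and 573 and 568 CPM in Tg mice, with 2993, 1319, 407 and 352 CPM in free RNA, and a log2 fold change of −2.02 ± 0.403 (SE, adjusted p = 0.042). Iigp1, an interferon-induced GTPase, had 257 and 143 CPM in WT and 23.5 and 47.7 CPM in Tg mice, and a log2 fold change of −2.32 ± 0.408 (SE, adjusted p = 0.0282). Taco1, an activator of the translation of a mitochondrial oxidase subunit, had 346 and 316 CPM in WT and 86.0 and 92.4 CPM in Tg mice, and Gas7, a growth arrest gene, had 182 and 215 CPM in WT and 49.5 and 70.8 CPM in Tg mice. Their log2 fold changes were −1.81 ± 0.251 (SE, adjusted p = 0.0127) and −1.63 ± 0.287 (SE, adjusted p = 0.0282). The noncoding RNA Gm26917 had 852 and 608 CPM in WT and 261 and 234 CPM in Tg mice and a log2 fold change of −1.48 ± 0.281 (SE, adjusted p = 0.0362). Gm26917 was below free RNA (589.6, 494, 328 and 351 CPM) in Tg mice. The genotypes did not overlap in any of these 5 genes, as in 49.5% of all genes tested. The free RNA of the Tg mice was lower in all 6 genes, and with the free RNA subtracted none of them passed, while the log2 fold changes were then about as large or larger, at −2.32 for Iigp1, −1.89 for Camk1d, −1.87 for Taco1, −1.74 for Gas7 and −2.01 for Gm26917. The sixth was Gm48099, with 16, 25, 3 and 3 UMIs. Iigp1, Taco1 and Camk1d passed whichever mouse was left out, though Camk1d did not with 2500 or more UMIs (adjusted p = 0.0565), as Gm26917 did not (0.0824), whereas without Tg replicate 1 Gas7 had an adjusted p = 0.0665, with DESeq2 it had 0.05001, just over the threshold, without the highest doublet scores it had 0.217, and without Tg replicate 2 Gm26917 had 0.0951. With 20 or more rule-gene UMIs, Iigp1 and Taco1 did not pass (adjusted p = 0.115 for each).

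Among the 154 higher genes, 7 were above free RNA in the pericytes of both Tg mice and were no marker of other cells. Free RNA was compared only in the genotype where a gene was higher. In both WT mice Gm35188 (17.7, 13.8, 177 and 102 CPM against 26.6, 21.6, 104 and 89.2 CPM in free RNA) and Lysmd4 (4.44, 8.25, 73.0 and 58.5 against 10.6, 11.5, 44.0 and 40.0 CPM) were below it, as were Angptl2 in WT replicate 2 and Gm20631 in WT replicate 1. Each of these 7 genes overlaps a protein-coding gene on the opposite strand (GENCODE M21, mm10), for 79.9% to 100% of its own length. Gm21798 (chr15:64817694-64937996, plus strand) overlaps Adcy8, a gene of the rule, and had 7 and 8 UMIs in WT and 94 and 147 UMIs in Tg mice, a log2 fold change of 3.25 ± 0.332 (SE, adjusted p = 0.00612). Adcy8 itself had 229, 212, 313 and 590 UMIs, so that Gm21798 had 3.06, 3.77, 30.03 and 24.9 UMIs per 100 UMIs of Adcy8. Since counts of Adcy8 chose the nuclei, this ratio is given as a description. The transcript 4930447N08Rik (chr3:122761955-122802048, minus strand) lies inside Pde5a and had 7 and 5 UMIs in WT and 115 and 121 UMIs in Tg mice, a log2 fold change of 3.60 ± 0.467 (SE, adjusted p = 0.0109). Per 100 UMIs of Pde5a these were 2.21, 1.96, 29.5 and 17.3 UMIs. Both genes kept an adjusted p under 0.05 with the free RNA subtracted, at 0.0355 and 0.0461. So did Hbb-bs, the beta-globin of red cells, which passed under all 17 alternatives. Passing after the subtraction thus does not mark a gene as one of pericytes.

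Gm15261 (chrX:169037674-169106536, minus strand), inside Arhgap6, had 5, 4, 89 and 88 UMIs and a log2 fold change of 3.60 ± 0.499 (SE, adjusted p = 0.0127). Gm35188 over Arhgap5 had 4, 5, 68 and 66 UMIs and a log2 fold change of 3.21 ± 0.487 (SE, adjusted p = 0.0152). Lysmd4 over Mef2a had 1, 3, 28 and 38 UMIs, Angptl2 inside Ralgps1 2, 2, 25 and 31 and Gm20631 inside Hmcn1 0, 1, 18 and 24, with adjusted p-values of 0.0256, 0.037 and 0.0369. The WT values of these last 3 genes are only 0 to 3 UMIs, so no fold is given for them, and DESeq2 gave no adjusted p for Gm20631. With the free RNA subtracted, none of the genes of this paragraph passed (adjusted p = 0.0589 to 0.258), while the log2 fold changes of Gm15261 and Gm35188 were then 3.74 and 3.91. Lysmd4 and Angptl2 did not pass with DESeq2 (adjusted p = 0.0887 and 0.198), and without Tg replicate 1 Angptl2 and Gm20631 did not pass with edgeR (adjusted p = 0.207 and 0.454). Without Tg replicate 2, Gm20631 had 0.088. None of the 7 overlapped genes passed the test, against 2.31% of all genes tested, and their log2 fold changes were between −0.62 and 0.32. From that of Adcy8, a gene of the rule, nothing is read.

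The comparison was then widened. Of all genes tested, 164 lay for at least 50% of their length inside a protein-coding gene of the opposite strand and overlapped none on their own strand. This definition was made after the values had been seen. In the pericytes of Tg mice, 14 of them were higher (8.54%, against 2.23% of all genes tested) and none lower, 122 had a positive log2 fold change, and the median was 0.60 against −0.02 over all genes tested. These counts include the 7 genes that prompted the definition. Without them, 7 of 157 were higher (4.46%), none was lower, 115 had a positive log2 fold change and the median was 0.54. Rpl35 and Rps28 of the ribosome were among these 7. The summed level of the 164 genes was 9440 and 9998 CPM in the pericytes of the WT mice and 14471 and 13040 CPM in those of the Tg mice, and without the 7 genes it was 9324, 9921, 13333 and 12247 CPM. Alveolar fibroblasts had 8636, 10039, 13501 and 12303 CPM of them, and endothelial nuclei had 9577, 10526, 13606 and 12654 CPM. Free RNA had 12014, 13390, 14453 and 15031 CPM, likewise higher in both Tg mice and above the pericytes in all but Tg replicate 1. The genes they overlap summed to 30191 and 29796 CPM in the pericytes of the WT mice and to 25321 and 27815 CPM in those of the Tg mice, and they were lower in both Tg mice in the other classes and in free RNA too. Gm15261 was likewise higher in the other classes, with 25.6, 23.8, 361 and 174 CPM in fibroblasts and 10.2, 12.3, 106 and 63.6 CPM in endothelial nuclei. Whether the counting used the strand is not given in the sources used here, and how far reads of a partner enter these counts was not tested.

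**Figure D5:**
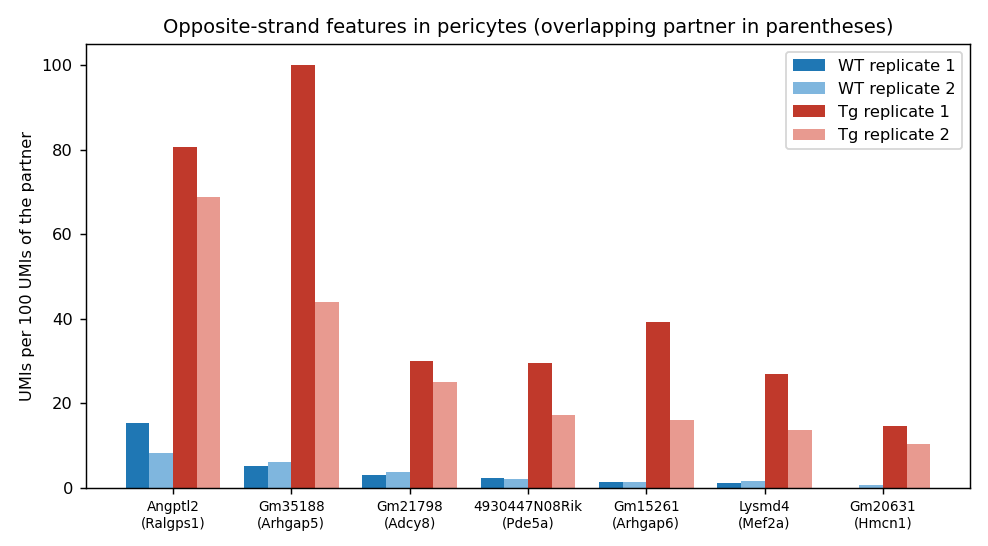
Bars give the UMIs of 7 genes in pericytes per 100 UMIs of the gene on the opposite strand that they overlap (in parentheses), for each mouse, with no error bars since each bar is 1 mouse. The genes were chosen for being higher in Tg mice, so the direction is given by the choice. Adcy8 is also a gene of the rule, so the ratio to it is a description only. Gm21798 stands at 3.06 and 3.77 in WT mice and 30.03 and 24.9 in Tg mice.

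The question of the study was put to the Notch pathway. From its own clusters, with free RNA removed, the paper reports a significant rise of Notch target genes in the Tg mice, in pericytes and/or SMCs. The nuclei and the test used here are others, and this test recovered 1% of 2-fold changes on simulated counts. Hes1, a target gene of Notch, was the only 1 of 6 target genes with enough UMIs, with 14 and 24 UMIs in WT and 44 and 52 UMIs in Tg mice and 62.1 and 66.0 CPM in WT and 115 and 80.1 CPM in Tg mice. Both Tg mice were above both WT mice, while the genotypes did not overlap in 49.5% of all genes tested. The log2 fold change of Hes1 was 0.65 ± 0.335 (SE, adjusted p = 0.399), and Hes1 in pericytes stayed below free RNA (179.7, 184, 163 and 173 CPM) in every mouse. Heyl, a target known in mural cells, had 7, 2, 3 and 15 UMIs, or 31.1, 5.50, 7.82 and 23.1 CPM, above free RNA (1.14 to 3.03 CPM) but overlapping between the genotypes and with fibroblasts (8.54 to 22.4 CPM). Hey2 had 2, 2, 4 and 8 UMIs, Nrarp 6, 2, 3 and 3, Hey1 0, 0, 0 and 4 and Hes5 0, 1, 0 and 0. Of the receptors and ligands, Notch1, Notch2 and Jag1 were tested, and Jag1, which encodes the ligand Jagged-1, had a log2 fold change of −0.94 ± 0.383 (SE, adjusted p = 0.295). All 9 cofactors tested missed the threshold, which 2.31% of all genes tested passed. Among these cofactors was Rbpj, the DNA-binding protein of the pathway, with −0.68 ± 0.266 (SE, adjusted p = 0.276). Jag1 passed as lower without WT replicate 2 (adjusted p = 0.00879) and Rbpj without the nuclei of the highest doublet scores (adjusted p = 0.0362). The median log2 fold change of the cofactors was −0.26, with 2 of 9 positive.

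None of the other pathway lists held a called gene, against 2.31% of all genes tested. Of calcium entry and contraction 28 genes were tested, of cAMP 21, of BMP and TGF-beta signaling 27, of basement membrane and matrix 19, of integrins 15, of mural transcription factors 16, of potassium channels 9 and of hypoxia 8. With an unadjusted p under 0.05 there were 2 calcium, 1 cAMP, 6 BMP and TGF-beta, 1 matrix, 2 integrin, 1 potassium channel and 3 hypoxia genes and no transcription factor, against 1068 of all 6914 genes, and DESeq2 called no gene of these lists either. Their median log2 fold changes lay between −0.30 for the transcription factors and −0.01 for cAMP, compared to −0.02 over all genes tested. The 7 vasoactive receptor genes had a median of 0.08 and the 9 genes of angiopoietin and VEGF signaling one of −0.13. Differences in both directions had wide errors. Cox4i2, an oxidase subunit of pericytes, had 5 and 3 UMIs in WT and 33 and 23 UMIs in Tg mice and a log2 fold change of 2.13 ± 0.696 (SE, adjusted p = 0.199). Cspg4 had a log2 fold change of 1.24 ± 0.521 (SE, adjusted p = 0.309) and Mcam, the adhesion molecule CD146, of 0.99 ± 0.517 (SE, adjusted p = 0.4). Kcnn3, a calcium-activated potassium channel, had 1.51 (adjusted p = 0.118), Lamb2, the laminin beta 2 chain, 1.55 (adjusted p = 0.225), and Ldha, lactate dehydrogenase A, 1.35 (adjusted p = 0.182). In the other direction, Bmper, a secreted BMP regulator, had 222 and 74.3 CPM in WT and 41.7 and 70.8 CPM in Tg mice and a log2 fold change of −1.22 ± 0.497 (SE, adjusted p = 0.295), and Bmp5, a BMP ligand, had 395 and 189.8 CPM in WT and 117 and 154 CPM in Tg mice and a log2 fold change of −0.999 ± 0.359 (SE, adjusted p = 0.238). The genotypes did not overlap in either, as in 49.5% of all genes tested. Without WT replicate 2, both passed (adjusted p = 8.74e-06 and 0.000283), and Bmper also with no filter (0.0311). Id3, a target gene of BMP signaling, had 4.44 and 16.5 CPM in WT and 67.7 and 49.3 CPM in Tg mice and a log2 fold change of 2.35 ± 0.58 (SE, adjusted p = 0.0884), and its free RNA had 20.9, 33.2, 141 and 92.7 CPM. Some of these genes passed under other settings. Id3 did so under 5 (lowest adjusted p = 0.00301) and Cox4i2 under 3 (0.00226). Kcnn3 passed with no filter and without WT replicate 1 (0.0466 and 0.00838), and Cspg4 and Mcam passed without WT replicate 1 (0.0251 and 0.0229).

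Among CDK inhibitors and target genes of p53, 7 of 16 genes could be tested and none passed, against 2.31% of all genes tested. Cdkn1a, which encodes p21, had 39.9 and 41.3 CPM in WT and 33.9 and 60.1 CPM in Tg mice, the genotypes overlapped, and its log2 fold change was 0.31 ± 0.418 (SE, adjusted p = 0.776). Mdm2, which encodes the ligase of p53, had a log2 fold change of −0.87 ± 0.287 (SE, adjusted p = 0.202), Ccng1 of 1.17 (adjusted p = 0.353) and Zmat3 of −0.97 (adjusted p = 0.305). The other genes tested were Cdkn1b, Sesn1 and Eda2r. Cdkn2a, which encodes p16, had 0, 2, 0 and 1 UMIs and Cdkn2b 1, 0, 1 and 4. The remaining genes, Cdkn1c, Cdkn2c, Cdkn2d, Trp53, Bax, Sesn2 and Gdf15, had at most 15 UMIs in any mouse. Genes of the cell cycle were too scarce to be tested, and their summed level was 42.6% to 89.3% of that in free RNA.

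Whether a change was particular to pericytes was tested as an interaction of class and genotype in edgeR, with a term for each mouse. Compared to alveolar fibroblasts, 0 of 9451 genes passed, and 486 (5.14%) had an unadjusted p under 0.05. Compared to endothelial nuclei, 0 of 13919 genes passed, and 817 (5.87%) had an unadjusted p under 0.05. These counts of 0 changed when a mouse was left out, to 12 and 199 without WT replicate 1, 19 and 47 without WT replicate 2, 3 and 4 without Tg replicate 1 and 2 and 25 without Tg replicate 2, where a genotype rested on 1 mouse. On simulated counts, of 200 genes changed 4-fold in pericytes, 56.5% were found against fibroblasts and 54% against endothelial nuclei. For 2-fold changes these shares were 1.5% and 0%. The test of the genotypes within pericytes recovered 84.5% of genes changed 4-fold and 1% of those changed 2-fold, so that it missed nearly all changes of this smaller size. The simulated counts assumed the same spread between mice for every gene, and only genes above a floor of UMIs were changed. These shares thus do not speak for scarcer genes.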

How the data were processed

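The deposited files hold, for each of the 4 mice, UMI counts of 32285 genes in every barcode, unfiltered. The authors made these counts with Cell Ranger 6.1.1 with introns included, and the labels name the build mm10. Their later steps (Seurat, decontX, cxds) are not in the files. All barcodes of a mouse held 125261739 to 182014706 UMIs, and counting error follows from the UMIs given with each value.

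Pericytes were selected by the rule in the text. Members and gene lists were chosen with earlier results of these data known. Alveolar fibroblasts and endothelial nuclei were gated with their own markers, with at most 3 UMIs of the pericyte rule genes and, for fibroblasts, the same endothelial limit. CPM are UMIs scaled to 1000000 per class and mouse. Doublets stayed in the main results, and cxds scores were computed again for an alternative. UMIs were summed per mouse, genes kept by filterByExpr (minimum 10 UMIs), scaled by TMM and tested with edgeR's quasi-likelihood test with Benjamini-Hochberg adjustment (threshold 0.05), checked on simulated data. The mouse is the replicate, and the labels call the samples replicates without naming animals, so that p-values measure the spread between these samples.

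Named genes were up to 10 per direction with the largest fold change among those past the threshold, without overlap of genotypes, above free RNA where they were higher, and no marker of other cells. The members of the lists of Notch targets, pericyte genes, smooth muscle and CDK inhibitors were also named, and the 20 leading genes had at least 100 CPM in each mouse, of which 1 is not reported here. Other genes named with a log2 fold change were chosen after their values were seen. Of the IDs tested, 6911 of 6914 matched GENCODE M21. Of the 7 rule genes, 5 had a promoter in the RefSeq table. Alternatives were DESeq2 in place of edgeR, all genes without the filter, the replicate block, each mouse left out, subtraction of free RNA, other thresholds, other cells in the droplet, smooth muscle and doublets. Library totals in place of TMM, the deepest nuclei left out, 20 or more rule-gene UMIs, the gated classes as denominator and the 2000, 3000 and 4000 UMI thresholds for the share were added after seeing the data. Versions were edgeR 4.0.16 with limma 3.58.1 and DESeq2 1.42.0 in R 4.3.3, and NumPy 2.4.6, SciPy 1.17.1, pandas 2.3.3 and matplotlib 3.10.9 in Python 3.11.15.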

Additional observations from a re-analysis of the deposited data

How the results depend on the processing

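The 160 genes that differed between genotypes became 521 with no filter on low counts, 81 with 2500 or more UMIs and 10 with free RNA subtracted. Each mouse left out in turn gave 221 to 565 genes, with 514 without WT replicate 1, 565 without WT replicate 2 and 333 without Tg replicate 2, where a genotype rests on 1 mouse assumed to vary like the other genotype. Of the 160, 133 passed whichever mouse was left out. With the replicate number as a block, 74 genes passed, 72 of them among the 160. The mice share only a number, and their differences correlated at 0.134 over genes, so the pairing was not used. The other settings gave 127 to 204 genes, with 127 from DESeq2 (115 higher, 12 lower) and 167 with 20 or more rule-gene UMIs.

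The interaction with fibroblasts gave 9 genes with no filter and 2 to 19 with a mouse left out. That with endothelial nuclei gave 57 with no filter, 2 with free RNA subtracted and 4 to 199 with a mouse left out. The difference in the share of pericytes (Tg minus WT), 0.183 percentage points, became 0.0635, 0.0105, −0.0223 and −0.0472 with 2000, 2500, 3000 and 4000 or more UMIs, 0.116 with 20 or more rule-gene UMIs, 0.425 of nuclei in the 4 gated classes, and 0.142 to 0.224 with a mouse left out. Of 610 log2 fold changes of named genes under alternatives, 543 kept direction and side of the threshold, 45 no longer passed and 18 newly passed, higher in Tg mice for Id3 (5 settings), Cox4i2 (3), Kcnn3 (2), Cspg4 and Mcam (1 each) and lower for Bmper (2), Bmp5, Jag1, Mylk and Rbpj (1 each). The replicate block ended the call of Iigp1, Camk1d, Gas7, Gm26917, Lysmd4, Angptl2, Gm20631, Gm26827, mt-Co3 and Sftpc, among others (adjusted p = 0.0552 to 0.0819 for those named). The 4 that reversed were of genes that did not pass in the main result: Myh11 with 20 or more rule-gene UMIs (−0.13), Mylk with 8 or more rule-gene UMIs (0.057) and without WT replicate 1 (0.22, from −1.30 to 0.22 with a mouse left out), and Cdkn1a without Tg replicate 2 (−0.14, from −0.14 to 0.58). The log2 fold change of Hes1 ranged from 0.21 to 1.23, with adjusted p-values of 0.321 to 0.999. With free RNA subtracted, Gm15261, Gm35188, Lysmd4, Angptl2, Gm20631, Gm26827, Gm48099, Taco1, Iigp1, Camk1d, Gas7 and Gm26917 no longer passed (adjusted p = 0.0589 to 0.258), but their log2 fold changes kept their direction and were about as large or larger (Taco1 −1.87 against −1.81, Gm35188 3.91 against 3.21). The causes of these shifts were not tested.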
